A study of Marchantia polymorpha and Klebsormidium nitens with 56 samples.

Results

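MpHSF1 is the gene with the identifier Mp4g12230 on chromosome 4 of the liverwort *Marchantia polymorpha*. It is 1 of 20574 genes in the count table of the mutant and overexpression experiment, and it was chosen by that identifier. It was the 1 gene of the table with a heat shock factor symbol, and the symbol does not give its class. The sources used here do not pair the genes named HSFA1X, HSFA1Y and HSFB1 with identifiers. Whether MpHSF1 is one of them, and so whether it is the gene disrupted in one of the mutants, is not given in the sources used here.

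Heat shock factors are transcription factors that bind heat shock elements in the promoters of chaperone genes. In flowering plants such as Arabidopsis, class A factors carry an activation domain, and the HSFA1 group starts the response to heat. Class B factors lack that domain, several of them repress transcription, and in Arabidopsis some heat shock factor genes are themselves targets of HSFA1 proteins and of class B repressors.

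RNA was sequenced from whole gemmalings, the young plants that grow from vegetative propagules, at an age of 7 days after growth at 22 °C, in 14 groups of 2 libraries. In the male background these were hsfb1 and hsfa1y knockouts with heat and without, plants overexpressing HSFA1Y or HSFA1X without heat, and the wild type Tak-1 with heat and without. In the female background they were the hsfa1x line with heat and without, plants overexpressing HSFA1Y or HSFA1X without heat, and the wild type BC3 with heat and without. Heat was 37 °C, and the hours of heat are not given per library of this experiment. The genotype label of hsfa1x reads "ox", whereas the sample sheet beside the counts lists it as a knockout, and it is called the hsfa1x line here. The sources used here do not give the number of independent lines behind each mutant or overexpression group, the promoter that drives overexpression or the kind of mutation.

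Libraries held 17.73 to 24 M reads, and MpHSF1 took 166 to 1620 of them. Counting error alone gave exact Poisson 95% intervals with half-widths of 4.90% to 15.5% of the MpHSF1 count, widest in hsfa1y. Identifiers of the male V chromosome summed to 2050 to 2600 CPM in the 16 male libraries and 386 to 901 CPM in the 12 female libraries, so the labelled sexes separated. Of 8 markers of particular organs or cells, 5 matched a symbol. Their summed level was 101 to 118 CPM in heated hsfb1, Tak-1 and BC3, 127 and 131 in heated hsfa1x, 166 and 175 in heated hsfa1y, and 160 to 208 in unheated groups. The sum came mainly from the air pore gene MpNOP1 and from MpRKD, both lower with heat. The gemma cup gene MpGCAM1 and the sperm regulator MpDUO1 went the other way, with both heated libraries above both unheated ones in all 5 genotypes. MpGCAM1 had 34.1 and 28.7 CPM in heated hsfa1y and 4.80 to 12.3 CPM in the other heated groups, against 0.928 to 2.87 CPM in unheated groups. MpDUO1 had 2.39 and 3.29 CPM in heated Tak-1, against 0.95 and 0.29 CPM in unheated Tak-1. The part of these shifts in the results below was not tested, and in whole plants fewer cells of a type and less RNA per cell cannot be told apart.

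The level of MpHSF1 is given in CPM, the reads of the gene scaled to the TMM-adjusted size of the library. It spanned 9.22-fold between the highest and the lowest group mean. With heat, hsfb1 had 71.6 and 83.6 CPM, and without heat it had 71.6 and 75.4 CPM. These 4 libraries were the highest of the 28, and the heated and unheated ones overlapped. Next came heated BC3 with 50.2 and 48.3 CPM, heated hsfa1x with 46.7 and 41.97 CPM, and heated Tak-1 with 40.5 and 47.6 CPM. Unheated HSFA1X overexpression in BC3, at 44.5 and 42.1 CPM, lay among these heated groups. The middle of the order was held by the other overexpression groups. HSFA1Y overexpression gave 32.6 and 29.1 CPM in Tak-1 and 29.3 and 27.8 CPM in BC3, and HSFA1X overexpression in Tak-1 gave 24.9 and 26.1 CPM. Unheated BC3 had 19.2 and 23.7 CPM and unheated hsfa1x 22.3 and 20.1 CPM, and these groups overlapped. At the low end, unheated Tak-1 had 11.96 and 13.9 CPM, heated hsfa1y 9.03 and 13.3 CPM, and unheated hsfa1y 8.41 and 8.44 CPM. Of the 13 pairs of neighbours in this order, 6 overlapped, and 7 differed in their means by less than the sum of their SDs. The steps beyond that sum lay below unheated hsfb1, heated BC3, unheated HSFA1X overexpression in BC3, HSFA1Y overexpression in BC3, HSFA1X overexpression in Tak-1 and unheated hsfa1x.

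**Figure D1:**
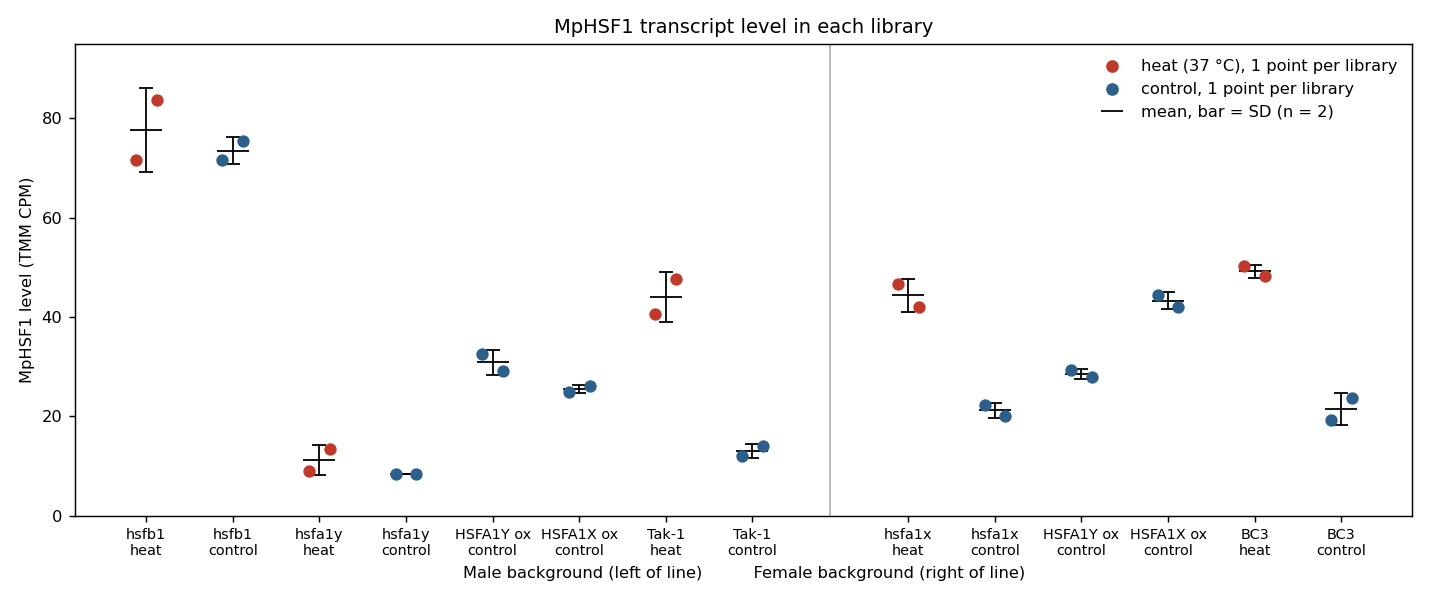
Level of MpHSF1 in TMM CPM (linear axis from 0) in the 28 libraries, grouped by genotype and heat, with the male background left and the female background right of the line. Points are libraries, and the horizontal marks and bars are the group mean and SD (n = 2). The 4 hsfb1 libraries lie at 71.6 CPM or above, with and without heat.

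Heat responses were compared within each genotype by edgeR's quasi-likelihood test over 13432 genes, with a call at an adjusted p below 0.05. In Tak-1, both heated libraries lay above both controls. MpHSF1 averaged 44.1 ± 5.04 CPM with heat and 12.9 ± 1.39 CPM without (SD, n = 2 in every group here), a 3.40-fold rise (95% interval 2.80 to 4.13, log2 1.77, adjusted p = 9.92e-11). That change was higher than the change of 96.7% of tested genes, in a comparison in which 25.6% of genes were called higher. In BC3 the fold was 2.30 (1.92 to 2.75, adjusted p = 3.02e-08), above the change of 93.6% of genes, with 23.9% called higher. The heat response in Tak-1 minus that in BC3 was a log2 of 0.57 ± 0.19 (SE), which did not pass (adjusted p = 0.0706), with 1.98% of genes called higher. It passed with DESeq2 (adjusted p = 0.0468), with no low-count filter (adjusted p = 0.00789) and without BC3 control library 1 (adjusted p = 0.0443), and over the 14 alternatives its adjusted p ran from 0.00789 to 0.292. Tak-1 stood lower than BC3 without heat, with means of 12.9 and 21.5 CPM (log2 -0.73 ± 0.14, adjusted p = 0.000415, 6.95% of genes called lower). With heat the means were 44.1 CPM in Tak-1 and 49.3 CPM in BC3 (95% interval of the ratio 0.752 to 1.07, adjusted p = 0.375), with 8.3% of genes called lower. That difference was not called, although both heated Tak-1 libraries lay below both heated BC3 libraries.

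In the hsfa1x line MpHSF1 rose with heat, to a mean of 44.4 ± 3.37 CPM with heat against 21.2 ± 1.53 CPM without. The fold was 2.09 (95% interval 1.74 to 2.52, adjusted p = 3.02e-07), with 19.8% of genes called higher. The response in hsfa1x minus that in BC3 was a log2 of -0.13 with an interval of -0.51 to 0.24 (adjusted p = 0.744, 4.15% of genes called lower). Without heat the ratio of hsfa1x to BC3 was 0.988, with an interval of 0.816 to 1.20 (adjusted p = 0.956, 7.36% called lower). With heat it was 0.901, with an interval of 0.757 to 1.07 (adjusted p = 0.475, 7.29% called lower), although both heated hsfa1x libraries lay below both heated BC3 libraries.

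The hsfa1y knockout stood low with heat and without. Heated hsfa1y averaged 11.2 ± 3.04 CPM against 44.1 ± 5.04 CPM in heated Tak-1. Both of its libraries lay below both of Tak-1, a ratio of 0.256 (95% interval 0.211 to 0.311, log2 -1.97 ± 0.14, adjusted p = 3.12e-11), and 13.2% of genes were called lower. MpHSF1 was among the 270 genes with the lowest changes of 13432. Without heat the ratio of hsfa1y to Tak-1 was 0.651 (0.522 to 0.812, adjusted p = 0.0118, 3.15% called lower). That call was lost without hsfa1y control library 1 (adjusted p = 0.104) or 2 (adjusted p = 0.0738) and without Tak-1 control library 2 (adjusted p = 0.166), with the ratio still below 1 each time.

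Within hsfa1y, heat gave a fold of 1.34 (95% interval 1.07 to 1.67, log2 0.42, adjusted p = 0.0302), with 22.1% of genes called higher. The heated libraries had 179 and 329 reads of MpHSF1 and the unheated ones 166 and 191, so both heated libraries lay above both controls in CPM and heat library 2 stood apart. Without that library the log2 change was 0.10 (adjusted p = 0.674). The change kept its size but lost the call without hsfa1y control library 1 (log2 0.42, adjusted p = 0.106) or 2 (log2 0.40, adjusted p = 0.129) and when hsfa1y libraries alone were fitted (log2 0.42, adjusted p = 0.143). The response in hsfa1y minus that in Tak-1 was a log2 of -1.35 ± 0.21 (adjusted p = 3.44e-05, 7.88% of genes called lower) and passed in each of the 14 alternatives. Heated hsfa1y was also set against unheated Tak-1, a comparison added after the data were seen. Their libraries overlapped, with means of 11.2 and 12.9 CPM (ratio 0.871, interval 0.705 to 1.08, adjusted p = 0.288, with 23.3% of genes called lower). Without hsfa1y heat library 2 that log2 change was -0.52 (adjusted p = 0.0120).

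Whether the change in heat response from the wild type differed between the hsfa1x and hsfa1y lines was tested directly, also as an added comparison. The change in heat response was less negative in hsfa1x (relative to BC3) than in hsfa1y (relative to Tak-1). The difference was 1.21 ± 0.27 on the log2 scale (adjusted p = 0.00563, 3.44% of genes called higher). It passed in each of its 22 alternatives. The same difference without heat was 0.60 ± 0.20 and did not pass (adjusted p = 0.105, 2.98% called higher), except with no low-count filter (adjusted p = 0.0195). The sexes and the lines change together in these comparisons and cannot be told apart.

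The hsfb1 knockout held the highest levels in this experiment. Whether MpHSF1 is the gene disrupted there is not given, so its reads in hsfb1 could be that gene's own transcript. Without heat MpHSF1 averaged 73.5 ± 2.67 CPM in hsfb1 and 12.9 ± 1.39 CPM in Tak-1. Both hsfb1 libraries lay above both of Tak-1, at 1620 and 1511 reads against 239 and 288. The fold was 5.67 (95% interval 4.69 to 6.87, log2 2.50 ± 0.13, adjusted p = 2.09e-12), the 152nd highest change among 13432 genes, with 17.8% called higher. With heat hsfb1 stood at 77.6 ± 8.49 CPM against 44.1 ± 5.04 CPM in Tak-1, a fold of 1.76 (1.48 to 2.09, adjusted p = 1.09e-05, 18.4% called higher).

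Heat did not change MpHSF1 detectably within hsfb1. The fold of heated over unheated hsfb1 was 1.06 with an interval of 0.893 to 1.25 (adjusted p = 0.638), in a comparison with 18.8% of genes called higher. The interval lies below the fold of 3.40 in Tak-1, and the response in hsfb1 minus that in Tak-1 was a log2 of -1.69 ± 0.18 (adjusted p = 5.82e-07, 6.57% of genes called lower). It was among the 179 most negative differences. Unheated hsfb1 exceeded heated Tak-1 by 1.67-fold (1.40 to 1.98, adjusted p = 1.33e-05), in an added comparison with 30.4% of genes called higher. These comparisons share the Tak-1 or hsfb1 libraries.

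**Figure D2:**
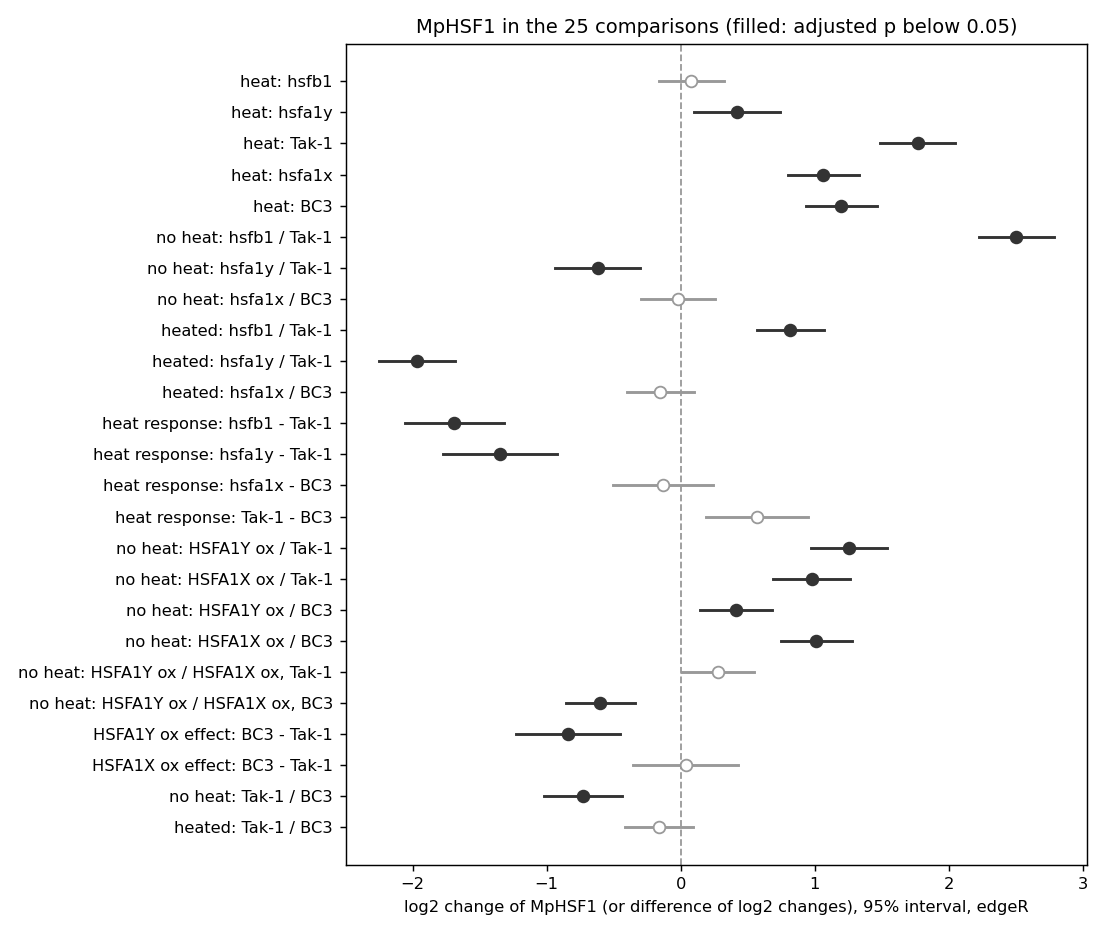
Change of MpHSF1 on the log2 scale (x axis) in the 25 comparisons (y axis), with 95% intervals from edgeR. Filled points passed an adjusted p below 0.05, and the rows named heat response or ox effect are differences of 2 log2 changes. The highest value is unheated hsfb1 over Tak-1 (2.50) and the lowest heated hsfa1y over heated Tak-1 (-1.97).

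MpHSF1 was higher with overexpression of HSFA1X or HSFA1Y than in the unheated wild type, in both backgrounds. In Tak-1, HSFA1Y overexpression averaged 30.9 ± 2.49 CPM against 12.9 ± 1.39 CPM in Tak-1, a 2.39-fold rise (1.96 to 2.91, adjusted p = 9.95e-08, 16.1% of genes called higher). HSFA1X overexpression in Tak-1 averaged 25.5 ± 0.815 CPM, a 1.97-fold rise (1.61 to 2.397, adjusted p = 5.59e-06, 15.1% called higher). In BC3, HSFA1X overexpression averaged 43.3 ± 1.72 CPM against 21.5 ± 3.20 CPM in BC3, a 2.02-fold rise (1.68 to 2.42, adjusted p = 2.08e-06, 10.5% called higher). HSFA1Y overexpression in BC3 averaged 28.5 ± 1.02 CPM, a 1.33-fold rise (1.11 to 1.603, adjusted p = 0.0245, 9.19% called higher). In all 4 comparisons both overexpression libraries lay above both wild type libraries. The rise with HSFA1Y in BC3 was lost without BC3 control library 1 (log2 0.26, adjusted p = 0.304) and without either HSFA1Y library (adjusted p = 0.157 and adjusted p = 0.0757).

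The size of the rise over the wild type differed by background for HSFA1Y. The HSFA1Y overexpression groups themselves stood at 30.89 CPM in Tak-1 and 28.55 CPM in BC3. The unheated wild types stood further apart, at 12.94 CPM in Tak-1 and 21.46 CPM in BC3. The effect of HSFA1Y in BC3 minus its effect in Tak-1 was a log2 of -0.84 ± 0.19 (adjusted p = 0.00278, 5.93% of genes called lower), which passed in each of 14 alternatives. For HSFA1X the same difference was 0.04 with an interval of -0.35 to 0.43 (adjusted p = 0.942, 4.74% called higher). Within BC3, HSFA1Y overexpression had a ratio of 0.660 to HSFA1X overexpression (0.552 to 0.790, adjusted p = 0.00410, 4.11% called lower). That call was lost without HSFA1X library 1 (adjusted p = 0.0592) or HSFA1Y library 2 (adjusted p = 0.0502). Within Tak-1 the ratio was 1.21 (1.01 to 1.46, adjusted p = 0.148, 7.09% called higher), which passed when these 2 groups alone were fitted (adjusted p = 0.0272). How strongly each transgene was expressed is not known here, since their identifiers are not given.

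Unheated overexpression was also set against the heated wild type, in comparisons added after the data were seen. HSFA1X in BC3 had a ratio of 0.879 to heated BC3 (0.738 to 1.05, adjusted p = 0.214, 25.6% of genes called lower). That ratio was not called, although both HSFA1X libraries lay below both heated BC3 libraries. HSFA1Y in BC3 stood lower, with a ratio of 0.580 (0.485 to 0.693, adjusted p = 1.21e-05, 26.4% called lower). In Tak-1 the ratio was 0.701 for HSFA1Y (0.586 to 0.839, adjusted p = 0.00128, 31% called lower) and 0.578 for HSFA1X (0.482 to 0.693, adjusted p = 1.22e-05, 29.8% called lower). The HSFA1Y call in Tak-1 was lost without Tak-1 heat library 2 (log2 -0.36, adjusted p = 0.0594).

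Genes of HSP90, a chaperone that folds signalling proteins and a typical target of heat shock factors, were set beside MpHSF1. The 5 genes of the table with an HSP90 symbol were all tested, and an HSP90 gene without a symbol would be missed. In heated hsfb1, 4 of the 5 were called higher than in unheated hsfb1, with a median log2 of 2.49 beside -0.04 over all genes, of which 18.8% were called higher. MpHSP90-1 (Mp1g26610) had 3330 and 3490 CPM with heat and 435 and 435 CPM without in hsfb1, a log2 change of 2.97. MpHSP90-4 (Mp5g15940) had 1260 and 1300 CPM with heat and 121 and 139 CPM without, a log2 change of 3.30. MpHSF1 itself stood at 0.08 in the same comparison and was not called. Whether MpHSF1 is the gene disrupted in hsfb1 is not given. A link between the MpHSF1 level and the HSP90 levels was not tested.

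Without heat, the HSP90 genes differed between hsfb1 and Tak-1 by far less than MpHSF1, whose log2 change was 2.50. MpHSP90-1 was higher by 0.20 (adjusted p = 0.0151) and MpHSP90-2 (Mp2g04900) by 0.35 (adjusted p = 0.00190). MpHSP90-4 was lower by a log2 of -0.47 (adjusted p = 6.02e-05, 16.5% of genes called lower), and MpHSP90-3 (Mp4g19750) and MpHSP90-5 (Mp6g06660) did not pass. The median over the 5 was 0.02, beside -0.00407 over all genes. That median was the value of MpHSP90-5, which had only 1.6 to 2.1 CPM in these libraries. The difference in heat response between hsfb1 and Tak-1 was -0.89 for MpHSP90-1 (adjusted p = 2.52e-07) and -0.39 for MpHSP90-2 (adjusted p = 0.0224). It was -0.17 for MpHSP90-4 (adjusted p = 0.360). With heat, 2 of 5 HSP90 genes were called lower in hsfb1 than in Tak-1 and 0 higher. Of all 13432 genes, 2762 were called lower there. MpHSP90-1 had 3330 and 3490 CPM in heated hsfb1 against 5490 and 5480 CPM in heated Tak-1 (adjusted p = 1.11e-08). MpHSP90-4 had 1260 and 1300 CPM against 1980 and 2000 CPM (adjusted p = 5.56e-07). The log2 changes were -0.685 and -0.636, beside 0.82 for MpHSF1.

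In hsfa1y, heat gave calls of higher for 2 of 5 HSP90 genes (median log2 0.68, beside -0.00779 over all genes, of which 22.1% were called higher). Their response was lower than in Tak-1 for 4 of 5 (median -1.16, beside 0.02 over all genes, of which 7.88% were called lower). MpHSP90-2 had a heat change of 1.73 in hsfa1y and MpHSP90-1 one of 0.985. MpHSP90-4 had 0.13 (adjusted p = 0.172) and MpHSP90-3 had 0.21 (adjusted p = 0.1). The median of 0.68 was the value of MpHSP90-5, a gene of few reads that was not called (adjusted p = 0.0683). In the hsfa1x line 4 of 5 rose with heat, with a median of 2.63 beside -0.000439 over all genes, of which 19.8% were called higher. Their difference in response from BC3 had adjusted p-values of 0.202 to 0.804, with 5.87% of genes called in either direction. The lowest was that of MpHSP90-4 (log2 -0.24, interval -0.47 to -0.02). MpHSP90-5 stood at 1.00 to 2.52 CPM in all libraries and passed in no comparison of the 12 shown in the map of changes.

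With overexpression and no heat, MpHSP90-1 and MpHSP90-4 rose in all 4 groups. MpHSP90-2 was called higher in Tak-1 with either transgene and not in BC3, and MpHSP90-3 and MpHSP90-5 were not called. That made 3 of 5 HSP90 genes in Tak-1 with HSFA1X (15.1% of all genes) and with HSFA1Y (16.1%). In BC3 it made 2 of 5 with HSFA1X (10.5%) and with HSFA1Y (9.19%). In Tak-1, HSFA1X gave MpHSP90-1 a log2 change of 0.94 and HSFA1Y 0.48, and MpHSF1 changed by 0.98 and 1.25 in the same groups. In BC3, HSFA1X gave MpHSP90-4 a log2 change of 0.27 and HSFA1Y 0.55, while MpHSF1 changed by 1.01 and 0.41. In BC3, MpHSP90-1 changed by 0.71 with HSFA1X and 0.61 with HSFA1Y, and HSFA1Y over HSFA1X was -0.10 for it (adjusted p = 0.369). The same ratio in BC3 was 0.28 for MpHSP90-4 (adjusted p = 0.0272, 2.72% of genes called higher) and -0.60 for MpHSF1 (adjusted p = 0.00410). In Tak-1 it was -0.46 for MpHSP90-1 (adjusted p = 1.17e-05, 9.75% of genes called lower) and -0.26 for MpHSP90-4 (adjusted p = 0.0223), beside 0.28 for MpHSF1. The calnexin gene MpCNX (Mp4g06370), whose product helps glycoproteins fold in the endoplasmic reticulum, rose with heat in all 5 genotypes by 0.87 to 1.30. That response was smaller than in Tak-1 in hsfa1y (log2 -0.42, adjusted p = 0.00174, 7.88% of genes called lower). It was also smaller in hsfb1 (log2 -0.28, adjusted p = 0.0438, 6.57% called lower). In hsfa1x it was not called different from BC3 (adjusted p = 0.833). Without heat MpCNX was higher in hsfb1 by 0.18 (adjusted p = 0.0308) and lower with HSFA1Y overexpression in Tak-1 (log2 -0.18, adjusted p = 0.0330, 19.5% of genes called lower). No symbol matched the list of other heat shock proteins and co-chaperones.

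**Figure D3:**
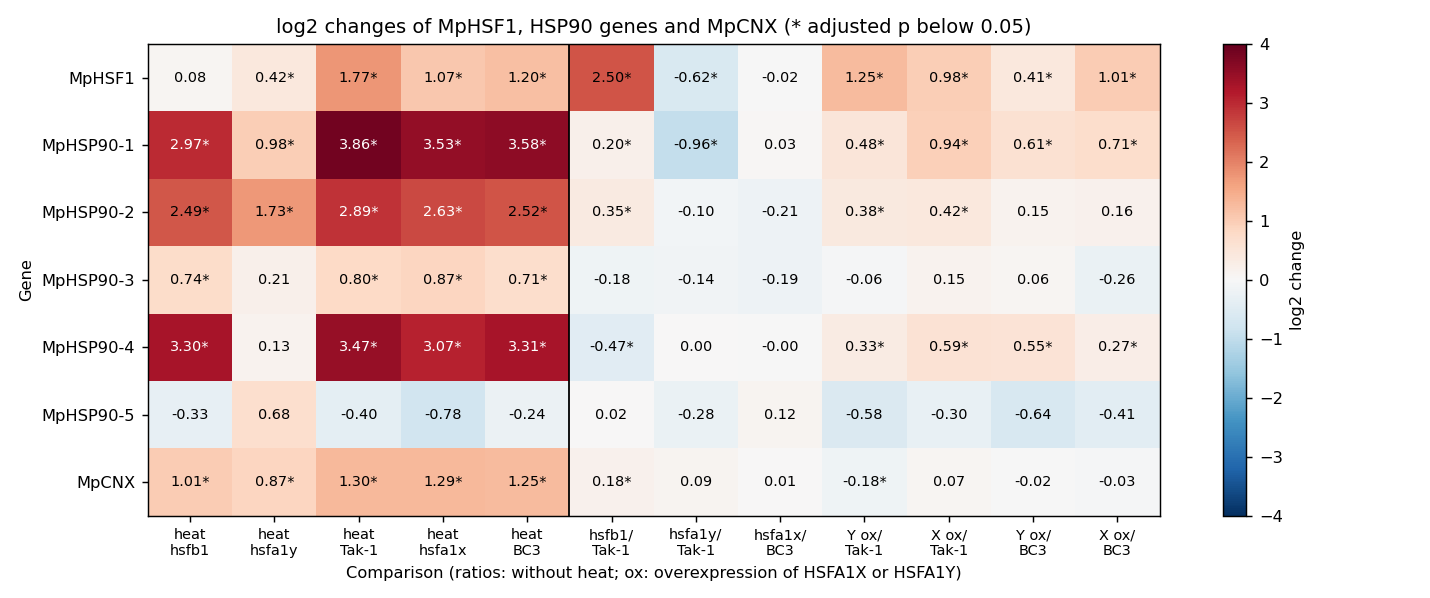
Map of log2 changes of MpHSF1, the 5 HSP90 genes and MpCNX (rows) with heat in 5 genotypes and in 7 unheated comparisons (columns), coloured from -4 to 4. Each cell prints its value, with an asterisk for an adjusted p below 0.05. MpHSF1 has its highest value, 2.50, in unheated hsfb1, where MpHSP90-4 stands at -0.47.

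Across the 14 group means of log2 CPM, MpHSF1 was correlated with MpHSP90-1 at r = 0.676 and with the other HSP90 genes at -0.385 to 0.533. Likeness was then measured against 10099 genes of at least 5 CPM, by Pearson's r over the 14 groups. This is a description over group means that share libraries and genotypes. Of these genes 14 had an r above 0.9, and the 10 most alike had 0.905 to 0.951. Of these 10, 5 were also among the 10 most alike by Spearman's correlation and 7 over the 28 libraries. They were Mp6g10230, Mp1g16680, Mp8g10500, Mp3g04040, Mp1g03910, Mp4g08980, Mp1g16770, Mp2g22970, Mp8g05590 and MpSMT1 (Mp3g04450), the 1 gene of the 10 with a symbol.

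Most of these genes shared the order of the groups and not the size of the changes. Their median log2 change was 0.31 with heat in Tak-1 and 0.49 in unheated hsfb1, against 1.77 and 2.50 for MpHSF1. Mp8g10500 (r = 0.931) came nearest in size, with log2 changes of 1.18 with heat in Tak-1, 2.15 in unheated hsfb1 and 1.09 with HSFA1X in BC3. It had 65.9 and 63.0 CPM in heated hsfb1 and 56.0 and 58.6 CPM in unheated hsfb1, against 30.4 and 28.2 CPM in heated Tak-1 and 12.2 and 13.7 CPM in unheated Tak-1. In hsfa1y it had 8.37 and 8.75 CPM with heat and 6.33 and 7.69 CPM without, the lowest values of this gene. It parted from MpHSF1 with HSFA1X overexpression in Tak-1, at 48.0 and 43.8 CPM, above its heated Tak-1 level. With HSFA1Y overexpression in Tak-1 it had 23.3 and 29.8 CPM, below those HSFA1X values. With HSFA1Y in BC3 it had 39.7 and 38.2 CPM, between its 35.2 and 45.9 CPM in heated BC3, whereas MpHSF1 stayed below its heated BC3 level. Mp6g10230 had the highest r (0.951) at a low level. It stood at 8.11 and 8.85 CPM in heated hsfb1 and 6.37 and 6.74 CPM in unheated hsfb1, against 7.11 and 7.95 CPM in heated Tak-1 and 2.30 and 3.72 CPM in unheated Tak-1.

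**Figure D4:**
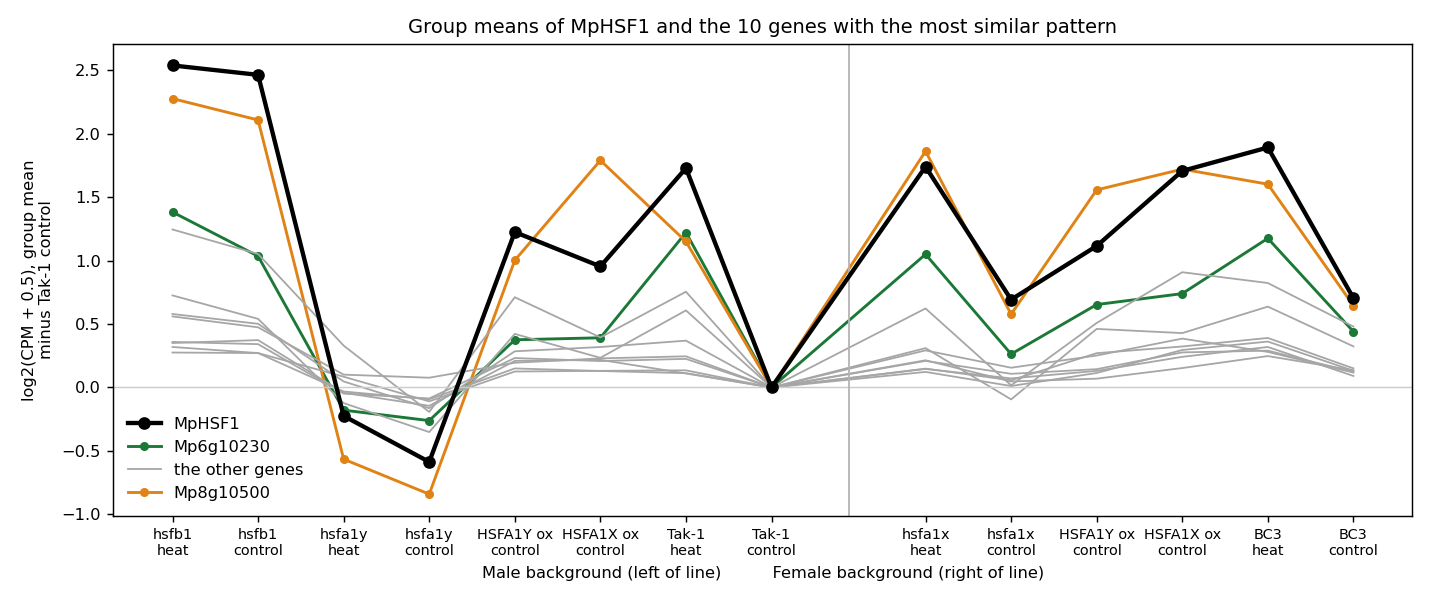
Group means of log2(CPM + 0.5), each set to 0 at unheated Tak-1 (y axis), for MpHSF1 and the 10 genes with the most similar pattern over the 14 groups (x axis), male background left of the line. Lines join groups as a guide to the eye. Mp8g10500 comes nearest to MpHSF1 in size, with a log2 change of 2.15 against 2.50 in unheated hsfb1, and most of the other genes move by less.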

How the data were processed

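The deposited table holds counts of reads per gene for 28 libraries, as whole numbers with no normalization. The submitters' processing notes name STAR. The sources used here do not give its version, the counting program, the genome build, strandedness or the handling of multi-mapping reads. An identifier present more than once was summed (1 case), leaving 20574 genes, of which 17641 matched a locus tag and 3091 a symbol in a gene table of the assembly MpTak2_v7.1.

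The quasi-likelihood F test of edgeR 4.0.16 (R 4.3.3, TMM, filterByExpr) was run with a mean for each of the 14 groups. Benjamini-Hochberg adjustment covered the 13432 genes left. SEs are from the F statistic. The script was tested on simulated data. There were 25 planned comparisons and 8 added after the data were seen. Of the 25, MpHSF1 was called higher in 10, lower in 7 and neither in 8. Alternatives were RLE scaling, DESeq2 1.42.0, other low-count filters, the compared groups alone, a replicate block and leaving out each library.

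The design text calls the replicates biological. The p-values rest on an estimate of the spread between libraries that all 14 groups share for each gene. They do not rest on the spread of the compared groups alone. Named genes are MpHSF1, the HSP90 and endoplasmic reticulum lists and the 10 genes most alike in pattern. The gene and the lists were chosen with earlier results of these data known. The time course table uses identifiers not paired with MpHSF1, so its 9 planned comparisons were not run, and the *Klebsormidium nitens* table was not used here.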

Additional observations from a re-analysis of the deposited data

Results flagged for a closer look

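A difference between groups under the same contrast passed an adjusted p below 0.05 in 4 tests of MpHSF1. Relative to Tak-1, the heat response was lower by a log2 of -1.69 in hsfb1 and of -1.35 in hsfa1y. The change in heat response was less negative in hsfa1x than in hsfa1y, by 1.21. The effect of HSFA1Y overexpression, relative to the wild type of each background, was lower in BC3 than in Tak-1, by -0.84. Groups of 2 libraries are too small to test for a library far from the others.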

How the results depend on the processing

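Among the 33 comparisons of MpHSF1, those called in the report kept their direction under the alternatives run, and RLE scaling, the stricter filter and the replicate block changed no call. Of those not called, 5 crossed 0 when a library was left out: heat in hsfb1 (-0.03 to 0.19), unheated hsfa1x over BC3 (-0.18 to 0.16), the heat response in hsfa1x minus BC3 (-0.31 to 0.04), the HSFA1X effect in BC3 minus Tak-1 (-0.11 to 0.21), and heated hsfa1y over unheated Tak-1. The replicate numbers do not pair the samples by the labels (correlations of -0.26 to 0.292 over 19 pairs of groups). With the replicate block the heat response in Tak-1 was 1.767 and that in hsfa1y 0.4182 on the log2 scale. With no low-count filter the heat response in Tak-1 minus that in BC3 passed (0.5592), as did the effect without heat of hsfa1x minus that of hsfa1y (0.5876). With DESeq2 the difference between the wild types also passed (0.5648). When only the groups compared were fitted, heat in hsfa1y was lost (0.4217) and HSFA1Y over HSFA1X in Tak-1 passed (0.2934).

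Leaving out a library gave log2 ranges of 0.1026 to 0.6574 for heat in hsfa1y, -0.7303 to -0.5106 for unheated hsfa1y over Tak-1, 0.2559 to 0.5804 for HSFA1Y overexpression in BC3 and -0.6496 to -0.5603 for HSFA1Y over HSFA1X in BC3, and in each some calls were lost. The ranges were 0.3825 to 0.7044 for the heat response in Tak-1 minus BC3, -0.5228 to 0.04419 for heated hsfa1y over unheated Tak-1, and -0.6083 to -0.3582 for HSFA1Y overexpression in Tak-1 over heated Tak-1. Fewer libraries were fitted in these, and a lone library was taken to vary like the others.

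Counts of called genes moved by over 1.5 times under 2 alternatives. With no filter, the counts with the main count after each were 555 against 231 higher for the response in hsfa1x minus BC3, 521 against 266 higher for Tak-1 minus BC3, 717 against 366 higher for HSFA1Y over HSFA1X in BC3, 807 against 417 lower for the HSFA1X effect in BC3 minus Tak-1, and 331 against 203 lower for the unheated effect of hsfa1x minus hsfa1y. With only the groups compared, hsfa1x over BC3 had 810 higher and 428 lower against 1520 and 988 without heat, and 389 and 324 against 762 and 979 with heat. The response in hsfa1x minus BC3 had 29 higher and 62 lower against 231 and 557, and Tak-1 minus BC3 had 175 against 266 higher. HSFA1X in Tak-1 had 3096 against 2034 higher, and heated Tak-1 over BC3 had 712 against 1390 higher. HSFA1Y over HSFA1X had 1590 against 952 higher in Tak-1, and 1547 higher and 1725 lower against 366 and 552 in BC3. The HSFA1X effect in BC3 minus Tak-1 had 1146 higher and 1009 lower against 637 and 417. The effect of hsfa1x minus hsfa1y had 222 against 404 lower for heat, and 195 higher and 102 lower against 400 and 203 without heat. The cause was not tested.

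With 2 libraries a group and 166 to 1620 reads, small changes of MpHSF1 are not detectable. The time course comparisons and a search for similar proteins were not run.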

Other observations

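The neighbours of MpHSF1 in the gene order of the reference were examined after the data were seen. The gene next to it on one side, Mp4g12240, had log2 changes of -0.02 with heat in Tak-1 (adjusted p = 0.859) and -0.17 in unheated hsfb1 (adjusted p = 0.198). The nearest gene on the other side, Mp4g12220, had 0 to 16 reads per library. The gene beyond it, Mp4g12210, has no symbol and also had few reads, with its 4 highest counts in hsfb1. It had 17 and 12 reads in heated hsfb1 and 15 and 12 in unheated hsfb1, against 3 and 1 in heated Tak-1 and 0 and 0 in unheated Tak-1. With HSFA1X overexpression in Tak-1 it had 6 and 7 reads, and in the female groups 0 to 3. It was called higher in unheated hsfb1 than in Tak-1 (adjusted p = 0.00037), with no fold given since unheated Tak-1 had no reads.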
